A study of Homo sapiens with 6 samples.

Results

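The zinc finger genes described here are 48 ZNF-named genes of band 19q13.43, the last band of the long arm of chromosome 19. They were taken by their symbols from a list, and all 48 were found among the 56832 gene symbols of the count table. The list is not complete, as ZNF444, ZNF582, ZNF772 and ZNF587B lie in the same interval. Counts, shares and ranks given below for the band refer to the 48 listed genes. In order along the chromosome they run from ZNF787 to ZNF446, between positions 56087366 and 58481230 (hg38), an interval of 2.39 Mb. Their RNA was compared between SMARCA3 KO 293T cells and WT 293T cells, with 3 libraries per group. HEK293T cells derive from human embryonic kidney and were transformed with adenovirus DNA and, later, the SV40 large T antigen. SMARCA3 is the protein of the gene HLTF, a SNF2-family helicase and ubiquitin ligase, and the series concerns its action on histone H3 and its link to trimethylation of H3K9. The labels give no agent other than the knockout, and they do not say whether the knockout is 1 clone or whether replicates were separate cultures. P-values therefore measure only the spread between these libraries, which may be technical.

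Zinc finger proteins of this kind carry a row of C2H2 fingers, each a small fold that holds a zinc ion and contacts a few bases of DNA. In most of them the fingers follow a KRAB box, which binds the corepressor TRIM28. TRIM28 in turn brings the methyltransferase SETDB1 and heterochromatin proteins, so that bound DNA, often a transposable element, gains H3K9 trimethylation and is silenced. The genes arose by tandem duplication and stand in clusters, most of them on chromosome 19. Bodies and last exons of the zinc finger genes are themselves known to carry H3K9 trimethylation, part of it placed through ZNF274, one of the genes in this band.

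The sequences around the starts of these genes share stretches, shown here because many neighbouring genes of the band rose. RefSeq promoter windows (GRCh38.p14), 250 bases before and 50 after each annotated start, matched 44 of the 48 genes by symbol. Reading them showed stretches that recur, and 2 words of 11 bases were taken from the ZNF416 window and searched on both strands. As the words were chosen for recurring in these windows, a higher share here than over all windows follows from the choice. It is no test of enrichment, and a link between the words and the rises was not tested. The first, GGGACTTCCGG, was found in 12 of the 44 windows (27.3%), against 70 of 27305 windows of all genes (0.256%). It contains CCGGAAG on the opposite strand, the core recognised by ETS factors, which alone was found in 63.6% of the windows of the band and in 10.7% of all windows. The 12 windows with the first word are aligned on it, each with 10 bases on either side and the word in capitals, read 5′ to 3′ along the word.
ZNF264: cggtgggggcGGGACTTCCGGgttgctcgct
ZNF805: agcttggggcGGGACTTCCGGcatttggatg
ZNF460: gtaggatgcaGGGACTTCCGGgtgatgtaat
ZNF547: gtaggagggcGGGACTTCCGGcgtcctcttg
ZNF419: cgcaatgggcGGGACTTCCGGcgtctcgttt
ZNF773: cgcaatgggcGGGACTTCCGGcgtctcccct
ZNF550: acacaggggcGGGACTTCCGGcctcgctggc
ZNF416: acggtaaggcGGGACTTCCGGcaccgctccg
ZNF134: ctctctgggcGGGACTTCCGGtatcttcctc
ZNF671: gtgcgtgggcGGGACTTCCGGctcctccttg
ZNF776: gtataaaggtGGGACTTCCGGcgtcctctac
ZNF132: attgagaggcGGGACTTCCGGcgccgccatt
In these 12 windows the word began at positions -131 to 0 relative to the annotated start. It ran in the direction of the gene in 11 of them, the exception being ZNF460.

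The second word, ACTACATTACC, was found in 10 of the 44 windows (22.7%), against 18 of 27305 windows of all genes (0.0659%), of which 15 lie on chromosome 19. It began at positions -146 to -68, in the direction of the gene in all 10, and ZNF749 held it at a pair of places, of which the first is shown.
ZNF17: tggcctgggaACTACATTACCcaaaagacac
ZNF749: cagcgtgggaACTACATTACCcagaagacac
ZNF550: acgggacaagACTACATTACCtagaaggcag
ZNF416: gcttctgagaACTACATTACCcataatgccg
ZNF530: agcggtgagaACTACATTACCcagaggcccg
ZNF154: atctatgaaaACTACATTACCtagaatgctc
ZNF586: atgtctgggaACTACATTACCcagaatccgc
ZNF587: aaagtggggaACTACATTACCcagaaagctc
ZNF814: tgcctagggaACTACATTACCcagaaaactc
ZNF418: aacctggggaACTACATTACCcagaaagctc
Both words stood in ZNF550 and ZNF416, and 20 of the 44 windows held at least one of them. Other motifs searched on both strands of the same windows were the GC box GGGCGG (65.9% in the band, 44.6% of all windows), the CCAAT box CCAAT (61.4% and 35.7%) and the word TGACG of cyclic AMP response elements (29.5% and 25%). The YY1 word GCCATNTTG stood in 11.4% of the windows of the band and 3.04% of all windows. A match describes letters and not a bound site.

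The windows of 4 genes, chosen as examples, are given whole, with the words in capitals. ZNF547 had the largest rise of the listed genes, ZNF416 holds both words, ZNF606 was not called, and ZNF667 was all but silent and not tested. Their positions on chromosome 19 are chr19:57363301-57363600 on the plus strand for ZNF547, and on the minus strand chr19:57578862-57579161 for ZNF416, chr19:58002771-58003070 for ZNF606 and chr19:56477296-56477595 for ZNF667.
ZNF547: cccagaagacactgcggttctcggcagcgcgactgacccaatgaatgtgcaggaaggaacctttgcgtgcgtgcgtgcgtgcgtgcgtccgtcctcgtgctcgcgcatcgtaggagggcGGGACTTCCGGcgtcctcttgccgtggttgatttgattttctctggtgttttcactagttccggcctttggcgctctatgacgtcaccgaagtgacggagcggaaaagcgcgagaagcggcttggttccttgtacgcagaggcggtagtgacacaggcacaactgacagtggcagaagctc
ZNF416: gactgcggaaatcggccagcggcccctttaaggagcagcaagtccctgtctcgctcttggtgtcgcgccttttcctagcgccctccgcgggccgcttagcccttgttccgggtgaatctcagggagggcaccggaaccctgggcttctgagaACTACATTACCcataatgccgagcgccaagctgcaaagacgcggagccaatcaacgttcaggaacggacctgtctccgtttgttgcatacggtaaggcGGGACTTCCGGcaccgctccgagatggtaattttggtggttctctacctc
ZNF606: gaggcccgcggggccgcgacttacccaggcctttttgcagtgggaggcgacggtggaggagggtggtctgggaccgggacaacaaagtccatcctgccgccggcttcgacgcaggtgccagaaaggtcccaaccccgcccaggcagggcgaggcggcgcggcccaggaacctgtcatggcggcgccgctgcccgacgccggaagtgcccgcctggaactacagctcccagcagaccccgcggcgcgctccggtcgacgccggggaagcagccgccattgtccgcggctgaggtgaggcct
ZNF667: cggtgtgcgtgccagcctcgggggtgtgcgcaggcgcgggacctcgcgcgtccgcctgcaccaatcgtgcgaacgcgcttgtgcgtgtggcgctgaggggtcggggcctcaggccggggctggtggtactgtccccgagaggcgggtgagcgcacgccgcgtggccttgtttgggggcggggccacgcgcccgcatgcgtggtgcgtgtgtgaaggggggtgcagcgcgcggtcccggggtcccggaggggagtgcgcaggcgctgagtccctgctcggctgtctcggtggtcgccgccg
ZNF547 and ZNF416 hold 30 and 24 CpG dinucleotides, and ZNF606 and ZNF667, which hold neither word, 34 and 42. Other genes paired differently. ZNF671, ZNF132, ZNF154 and ZNF587 hold a word and were not called, while ZNF304, ZNF548 and ZNF256 hold neither and rose. By CpG too there were exceptions to these 4 examples. ZNF671 and ZNF587 hold 11 and 12 CpG and were not called, while ZNF324 and ZNF446 hold 35 and 33 and rose. The median over the 44 windows was 23 CpG, against 14 over all windows.

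Total counts ran from 33125811 to 36804337 in the KO libraries and from 38199454 to 41593655 in the WT libraries, so every KO library was the shallower. Of 6 markers of the line, 5 reached 1 CPM (counts per 1000000 TMM-scaled counts) in the KO and 6 in the WT. The marker missing from the KO was NEFM, the medium neurofilament, at 0.0501 ± 0.0633 CPM in KO and 34.8 ± 2.85 CPM in WT libraries (SD, n = 3 each). The line's markers did not move together. PAX2 was called higher, at 10.8 ± 0.0636 CPM in KO and 4.52 ± 0.666 CPM in WT libraries (SD, n = 3 each). KRT8, KRT18 and VIM were called lower, as was NEFM, and NEFL was not called. Of 9 markers of blood, endothelium, fibroblasts, red cells and liver, COL1A1 alone reached 1 CPM, in both groups. The summed level of the line's markers was 212 to 214 CPM in KO and 323 to 339.8 CPM in WT libraries, and that of the other cells' markers 6.11 to 7.05 CPM in KO and 6.36 to 8.13 CPM in WT libraries. The part of these differences in the results was not tested. HLTF itself measured 141, 139.9 and 149 CPM in the KO libraries, against 215, 191 and 195 CPM in the WT libraries. The ranges did not overlap, and the log2 of KO over WT (log2 KO/WT) was -0.48 (SE 0.05, quasi-likelihood test of edgeR, Benjamini-Hochberg adjusted p = 4.65e-05; exact permutation p = 0.1, the smallest that 3 against 3 libraries allow). HLTF mRNA was thus lower but present, and gene counts do not show whether its sequence or protein was altered. In bulk RNA, fewer cells of a kind and less RNA per cell cannot be told apart.

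Most of the tested zinc finger genes of the band were higher in the KO than in the WT, each by less than 2-fold. Of the 44 genes with enough counts to test, 30 rose, 0 fell and 14 were not called. Over all 18061 genes tested, 14.0% were called higher and 17.7% lower, 31.8% in either direction (adjusted p under 0.05). The 30 rises ran from 1.18-fold in ZNF543 to 1.77-fold in ZNF547, and their adjusted p from 0.0452 in ZNF773 down to 1.03e-05 in ZNF304. The median log2 KO/WT over the 44 genes was 0.38, beside 0.00 over all genes tested. At an unadjusted p under 0.05 in edgeR there were also 0 falls among the 44 genes. DESeq2 called 26 rises and limma-voom 30, and both called 0 falls, at an adjusted p under 0.05. In 30 genes every KO library stood above every WT library, and in 0 every KO library stood below, where the shares over all genes tested were 21.2% and 24.4%. These counts describe the band and are not a test of it as a set.

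**Figure D1:**
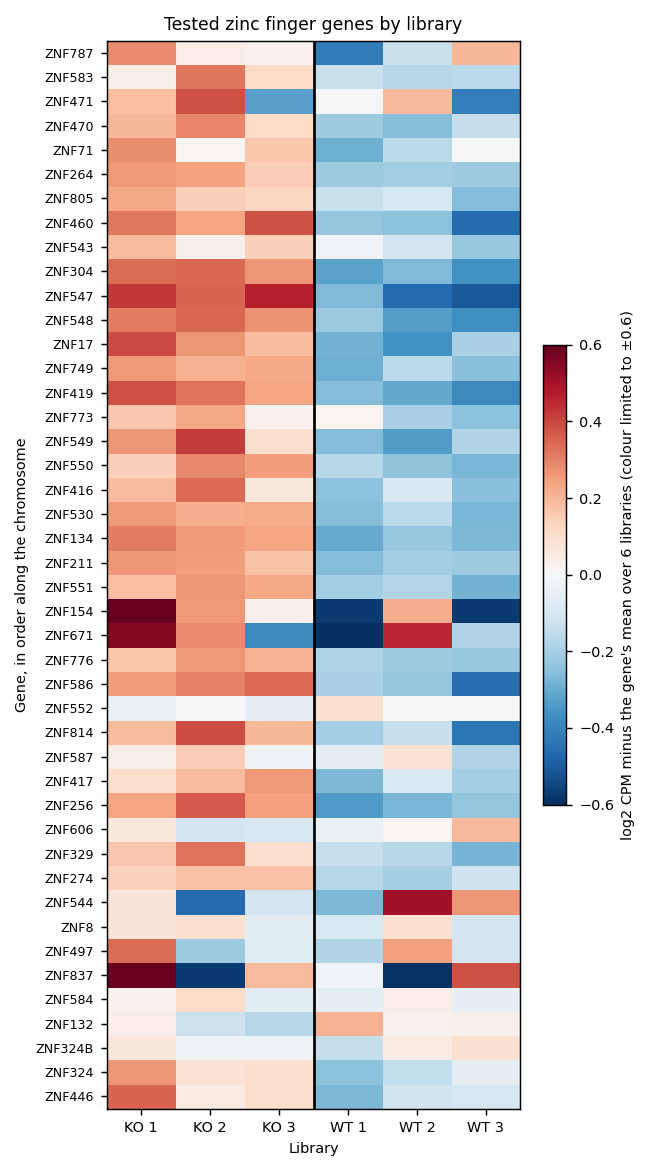
Level of each of the 44 tested zinc finger genes (rows, in order along the chromosome) in each library (columns, 3 KO and then 3 WT), as log2 CPM minus the gene's mean over the 6 libraries, with the colour scale limited to ±0.6. From ZNF264 to ZNF551 every KO library is above every WT library in every row, while ZNF552, ZNF587 and most rows below ZNF606 show no such split.

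The largest fold among the listed genes belonged to one of the weaker ones. ZNF547 (chr19, 57363477 to 57379565, plus strand), a KRAB protein gene with 10 fingers, measured 3.00, 2.85 and 3.09 CPM in the KO and 1.86, 1.62 and 1.57 CPM in the WT. Its groups were well apart, with a log2 KO/WT of 0.82 (SE 0.13, edgeR adjusted p = 0.000646). Its exons share 193 bases with TRAPPC2B and 301 with a readthrough gene on the same strand, so part of its reads could be counted for these. TRAPPC2B, which encodes a copy of a vesicle-tethering subunit, rose too, with 6.08 ± 0.689 CPM in KO and 4.73 ± 0.377 CPM in WT libraries (SD, n = 3 each), a log2 KO/WT of 0.36 (SE 0.11, edgeR adjusted p = 0.0283).

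ZNF304 gave the smallest p of the listed genes. It encodes a KRAB protein with 16 fingers. ZNF304 (57351307 to 57359898, plus strand) measured 43.1, 43.4 and 41.1 CPM in the KO and 27.4, 28.5 and 26.6 CPM in the WT, so the lowest KO library was well above the highest WT library. Its log2 KO/WT was 0.63 (SE 0.05, edgeR adjusted p = 1.03e-05). ZNF460 (57280051 to 57293569), a KRAB gene with 11 fingers, had 11.2, 10.6 and 11.7 CPM in the KO and 7.66, 7.57 and 6.53 CPM in the WT. Its groups too were apart, with a log2 KO/WT of 0.62 (SE 0.09, adjusted p = 0.000351 in edgeR).

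The next genes stand close together, in a stretch where each successive ZNF gene rose. ZNF548 (57389850 to 57402992) measured 22.7, 23.3 and 22.1 CPM in the KO and 15.7, 14.6 and 14.2 CPM in the WT. ZNF17 (57411163 to 57421939), with 18 fingers, measured 17.6, 16.1 and 15.2 CPM in the KO and 11.0, 10.4 and 11.7 CPM in the WT. ZNF749 (57435329 to 57445485) had 20.2, 19.6 and 19.8 CPM in the KO and 13.8, 15.1 and 14.2 CPM in the WT. In none of these 3 genes did a KO library fall within the range of the WT libraries. Their log2 KO/WT values were 0.62 (SE 0.07) for ZNF548, 0.56 (SE 0.08) for ZNF17 and 0.47 (SE 0.07) for ZNF749, and the largest of the 3 adjusted p in edgeR was 0.000379.

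ZNF419, whose product is the source of a minor histocompatibility antigen on renal tumours, follows them. ZNF419 (57487711 to 57496097) measured 20.8, 20.0 and 18.8 CPM in the KO and 13.3, 12.9 and 12.2 CPM in the WT, with no overlap. Its log2 KO/WT of 0.64 (SE 0.07, edgeR adjusted p = 5.8e-05) was the second largest of the listed genes. ZNF773, which lies just beyond it and whose window matches that of ZNF419 through the first word and the bases shown before it, measured 9.90, 10.4 and 9.03 CPM in the KO and 8.97, 7.75 and 7.47 CPM in the WT. Its lowest KO library was barely above its highest WT library, and its log2 KO/WT of 0.28 (SE 0.10, edgeR adjusted p = 0.0452) lost its call in 6 of 13 alternatives, among them without KO replicate 1 or 2 and without WT replicate 2 or 3 (adjusted p of up to 0.163). Whether the rises of ZNF419 and ZNF773 differ was not tested.

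ZNF549 (57527325 to 57557542) and ZNF550 (57535257 to 57559863) lie on opposite strands and share 473 exon bases. ZNF549 measured 16.1, 17.9 and 14.3 CPM in the KO and 11.2, 10.6 and 11.8 CPM in the WT, a log2 KO/WT of 0.53 (SE 0.09, edgeR adjusted p = 0.00127). ZNF550 averaged 21.1 ± 1.08 CPM in KO and 15.3 ± 0.557 CPM in WT libraries (SD, n = 3 each). Both rose without overlap between the groups. No source used here gives the strand setting of the counting, and reads of such pairs may not have been told apart.

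ZNF134 (57614233 to 57624723), with 10 fingers, is among the best expressed of the band. It measured 41.6, 40.2 and 39.6 CPM in the KO, against 27.3, 28.7 and 27.9 CPM in the WT, which left a clear gap. Its log2 KO/WT was 0.53 (SE 0.05, edgeR adjusted p = 2.94e-05). Farther on, ZNF586 (57769655 to 57819939) had 9.67, 10.0 and 10.3 CPM in the KO and 7.11, 6.90 and 5.93 CPM in the WT, a log2 KO/WT of 0.59 (SE 0.09). ZNF256 (57940833 to 57947675), which has 15 fingers and no annotated exon overlap, had 16.0, 17.5 and 16.1 CPM in the KO and 10.7, 11.2 and 11.5 CPM in the WT, a log2 KO/WT of 0.57 (SE 0.07). Neither gene overlapped between the groups, and their edgeR adjusted p were 0.000583 for ZNF586 and 0.000159 for ZNF256.

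Several genes beyond ZNF551 were not called, ZNF154 and ZNF671 first and, between ZNF586 and ZNF256, also ZNF552 and ZNF587. ZNF552, whose exons share 126 bases with ZNF586 on the other strand, measured 12.8, 13.2 and 12.7 CPM in the KO and 14.1, 13.2 and 13.1 CPM in the WT. Its groups overlapped, and its log2 KO/WT was -0.06 (SE 0.07, edgeR adjusted p = 0.543). ZNF587 and ZNF417 are near-identical copies whose proteins are known to bind HERV-K retroviral sequences in human neurons, and ZNF814 is a close relative. ZNF587 (57849857 to 57865112) measured 33.4, 36.1 and 31.9 CPM in the KO and 31.3, 34.6 and 28.8 CPM in the WT, overlapping, with a log2 KO/WT of 0.10 (SE 0.08, edgeR adjusted p = 0.35).

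ZNF417 (57900296 to 57916610) rose, with 11.4, 12.1 and 12.7 CPM in the KO and 8.80, 9.98 and 9.21 CPM in the WT, a log2 KO/WT of 0.37 (SE 0.08, edgeR adjusted p = 0.00566). ZNF814 (57848731 to 57889074), which has 23 fingers, the most of the band, rose as well, with 9.38, 10.8 and 9.45 CPM in the KO and 7.16, 7.49 and 6.08 CPM in the WT, a log2 KO/WT of 0.52 (SE 0.10, edgeR adjusted p = 0.00279). Neither overlapped between the groups. ZNF814 and ZNF587 share 2445 exon bases on opposite strands, and reads can be split among the copies, so the values of these 3 genes and of ZNF587B beside them are uncertain. ZNF587B, a further copy that is not in the list, rose by 0.30 on the log2 scale (SE 0.06, edgeR adjusted p = 0.00408).

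ZNF274 is the member tied most directly to H3K9 trimethylation. It carries a KRAB and a SCAN domain, with 6 matches to a finger pattern, and recruits SETDB1 with TRIM28 to the last exons of other zinc finger genes. ZNF274 (58183029 to 58213562) measured 22.9, 23.5 and 23.5 CPM in the KO and 18.5, 18.1 and 19.1 CPM in the WT. The groups were apart by several times their spread, with a log2 KO/WT of 0.33 (SE 0.06, edgeR adjusted p = 0.00179). Its gene has no annotated exon overlap.

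Toward the end of the chromosome, the genes from ZNF544 to ZNF324B were not called, and the last, ZNF324 and ZNF446, were called. ZNF324 (58467045 to 58475436) measured 28.2, 24.9 and 25.1 CPM in the KO and 19.8, 21.2 and 22.5 CPM in the WT, a log2 KO/WT of 0.30 (SE 0.07, edgeR adjusted p = 0.00937). Its tandem copy ZNF324B (58451604 to 58457833) measured 12.6, 11.8 and 11.8 CPM in the KO and 10.9, 12.4 and 12.8 CPM in the WT, a log2 KO/WT of 0.00 (SE 0.08, edgeR adjusted p = 0.98). The difference between the copies was not tested, and ZNF324 shares 1420 exon bases with ZNF446, which rose by 0.34 (SE 0.11, edgeR adjusted p = 0.0413); this call was lost in 6 of 13 alternatives, among them without KO replicate 1 or 3 and without WT replicate 1 or 2 (adjusted p of up to 0.157). ZNF584, among the 3 genes with the highest level per exon length over all 6 libraries, measured 25.4, 27.0 and 23.8 CPM in the KO and 24.0, 25.7 and 24.1 CPM in the WT, overlapping, with a log2 KO/WT of 0.05 (SE 0.07, edgeR adjusted p = 0.626).

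The remaining 11 rises were of the same order. ZNF264, a gene with 13 fingers that opens the run, averaged 44.4 ± 1.85 CPM in KO and 32.8 ± 0.121 CPM in WT libraries (SD, n = 3 each), with a log2 KO/WT of 0.44 (SE 0.05, edgeR adjusted p = 0.000113). ZNF776, which the first word also marks, averaged 37.1 ± 1.22 CPM in KO and 27.7 ± 0.421 CPM in WT libraries (SD, n = 3 each), a log2 KO/WT of 0.42 (SE 0.05, edgeR adjusted p = 0.000166). ZNF530, ZNF211 and ZNF551 had log2 KO/WT values of 0.46, 0.46 and 0.44. At the near end, ZNF470 had 0.41, ZNF805 0.33, ZNF583 0.32, ZNF71 0.30 and ZNF543 0.24, and ZNF329 toward the far end had 0.40. In all 11 the libraries of the groups did not overlap. ZNF583, ZNF71, ZNF543 and ZNF329 had adjusted p of 0.017 to 0.0374 in edgeR, and each lost its call when a library was left out: ZNF329 without KO replicate 2 (adjusted p = 0.0821), ZNF583, ZNF71 and ZNF543 without any of 4 libraries in turn (adjusted p of up to 0.155). ZNF583 and ZNF329 were also not called by DESeq2 with all libraries kept.

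By position, the band can be divided into 4 groups of 12 genes. From ZNF787 to ZNF304, 8 of 10 tested genes rose, with a median log2 KO/WT of 0.32. From ZNF547 to ZNF211, 12 of 12 rose, with a median of 0.50. From ZNF551 to ZNF606, 6 of 11 rose, with a median of 0.42, and from ZNF135 to ZNF446, 4 of 11 rose, with a median of 0.07. The longest run of rises held 18 consecutive listed genes, from ZNF264 to ZNF551 over 0.53 Mb, with folds between 1.18 and 1.77. AURKC, which is not in the list and lies between ZNF264 and ZNF805, was not called (log2 KO/WT 0.17, SE 0.16, edgeR adjusted p = 0.475). In the last group 9 of the 11 values were above 0 though most were not called.

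**Figure D2:**
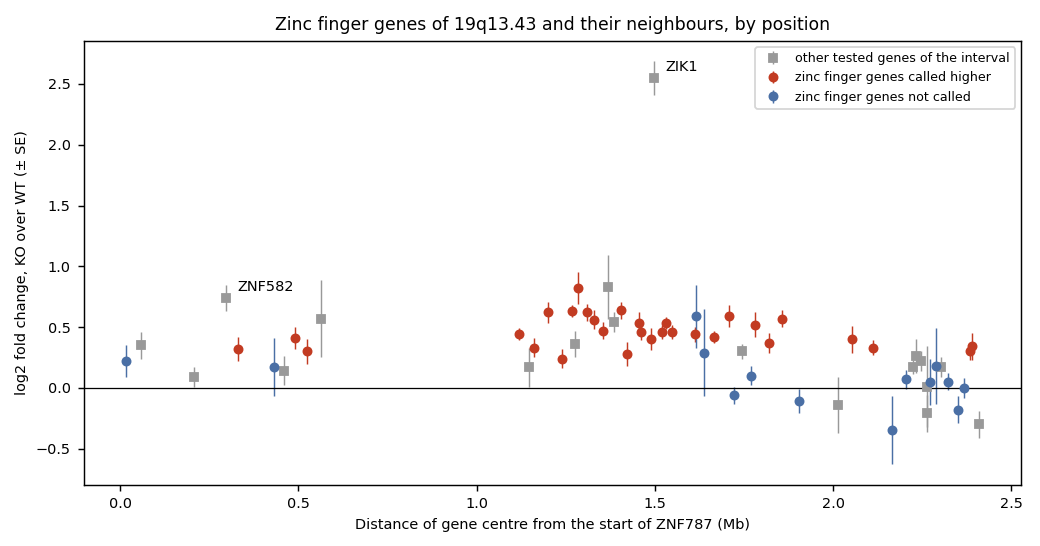
The log2 fold change of KO over WT (± SE from edgeR) against the distance of the gene's centre from the start of ZNF787 in Mb, for the 30 zinc finger genes called higher, the 14 not called and the 19 other tested genes of the interval. The listed genes from ZNF264 to ZNF551 lie between 0.24 and 0.82, and many genes at the far end lie near 0. ZIK1 stands alone at 2.55.

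The other genes of the interval are the nearest comparison. Of 19 that were positioned and tested, 7 rose (36.8%), 0 fell and 12 were not called, with a median log2 KO/WT of 0.22. Without KO replicate 1, 4 rose and 1 fell, and without WT replicate 1, 8 rose and 1 fell. Of the 9 that carry zinc finger names, 5 rose (55.6%), and of the 10 others, 2 rose (20.0%). Over all genes tested, 14.0% rose and 17.7% fell. The lists of 9 and 10 genes were not tested against each other. ZIK1, whose product binds the RNA-binding protein hnRNP K, had 8.10, 8.28 and 6.91 CPM in the KO and 1.57, 1.28 and 1.10 CPM in the WT. The groups were far apart, with a log2 KO/WT of 2.55 (SE 0.14, edgeR adjusted p = 3.45e-07), larger than that of any ZNF gene of the band.

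ZIK1 and ZNF416 start head to head and share 256 exon bases on opposite strands. ZNF416 measured 12.3, 13.7 and 11.3 CPM in the KO and 9.13, 10.1 and 9.10 CPM in the WT, a log2 KO/WT of 0.40 (SE 0.09, edgeR adjusted p = 0.00594). Both genes rose, ZIK1 5.87-fold and ZNF416 1.32-fold. ZNF582, a KRAB gene near the start of the band, averaged 5.95 ± 0.623 CPM in KO and 3.54 ± 0.112 CPM in WT libraries (SD, n = 3 each), a log2 KO/WT of 0.74 (SE 0.11, edgeR adjusted p = 0.000415). ZNF772, within the run of rises, measured 17.0, 17.0 and 18.5 CPM in the KO and 13.1, 11.1 and 11.8 CPM in the WT, with no overlap and a log2 KO/WT of 0.54 (SE 0.08, edgeR adjusted p = 0.000431).

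ZNF genes outside the list had medians closer to 0. Of 160 tested on chromosome 19, 47 were higher and 12 lower (29.4% and 7.5%), with a median log2 KO/WT of 0.14. These 160 include ZNF444, ZNF582, ZNF772 and ZNF587B of the interval, all called higher and also counted among its other genes above. Of 236 on other chromosomes, 55 were higher and 24 lower (23.3% and 10.2%), with a median of 0.09. Of 771 genes of chromosome 19 without a ZNF name, 108 were higher and 53 lower (14.0% and 6.87%), with a median of 0.10. Over all genes tested the shares were 14.0% higher and 17.7% lower. These lists were not tested against the band.

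Levels per exon length differed widely between genes. Over all 6 libraries ZNF304 stood highest, at 9.23 ± 0.276 CPM per kilobase of exon in KO and 5.97 ± 0.205 in WT libraries (SD, n = 3 each). ZNF134 had 7.88 ± 0.207 in KO and 5.45 ± 0.140 in WT libraries, and ZNF584 6.87 ± 0.427 in KO and 6.66 ± 0.256 in WT libraries, in the same unit and with 3 libraries each. In WT libraries the level of ZNF584 was thus above that of ZNF304 and ZNF134, while in KO libraries ZNF304, ZNF134 and ZNF256 stood above ZNF584. ZNF256 had 7.60 ± 0.404 in KO and 5.12 ± 0.196 in WT libraries (CPM per kilobase, SD, n = 3 each). Most genes of the run from ZNF264 to ZNF551 lay between 1 and 10 CPM per kilobase in the KO, ZNF547 being lower at 0.835 ± 0.0337 in KO and 0.471 ± 0.0426 in WT libraries (SD, n = 3 each).

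**Figure D3:**
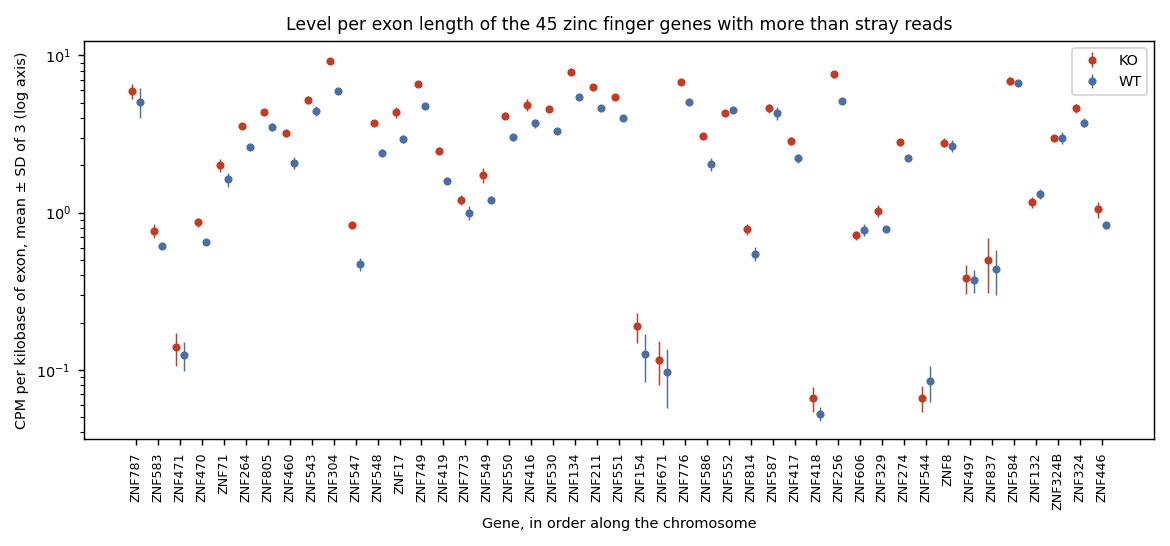
Level per exon length (CPM per kilobase of exon, log axis; mean and SD of 3 libraries, KO left of WT) of 45 of the 48 zinc finger genes in order along the chromosome. ZNF135, ZNF667 and ZNF835, with a total of 0 to 4 reads, are left out. KO points lie above WT points through the run from ZNF264 to ZNF551.

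A second set of genes was near or at silence in both groups. ZNF135 had 0 counts in all 6 libraries, which allows at most 0.0909 CPM in the shallowest KO library and 0.0787 CPM in the shallowest WT library (a floor of 3 counts). ZNF835 had 0 counts in the KO and 1 in the WT, and ZNF667 had 2 counts in each group. ZNF418 had 12, 11 and 8 counts in the KO and 10, 10 and 8 counts in the WT. These 4 genes were below the filter on low counts and were not tested. The promoters of ZNF667, ZNF154, ZNF671, ZNF471 and ZNF132 are known from tumours as sites of DNA methylation, which was not measured here.

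Of those genes, examples chosen after their values were seen and not a full list, the tested ones averaged under 5 CPM and were not called. ZNF154 measured 1.34, 1.03 and 0.879 CPM in the KO and 0.578, 1.00 and 0.577 CPM in the WT, and the groups overlapped (log2 KO/WT 0.59, SE 0.26, edgeR adjusted p = 0.108). ZNF671 averaged 0.410 ± 0.127 CPM in KO and 0.340 ± 0.137 CPM in WT libraries, and ZNF471 0.943 ± 0.226 CPM in KO and 0.841 ± 0.174 CPM in WT libraries (SD, n = 3 each). ZNF132 averaged 4.09 ± 0.322 CPM in KO and 4.62 ± 0.341 CPM in WT libraries (SD, n = 3 each; log2 KO/WT -0.18, SE 0.11, edgeR adjusted p = 0.241). Of the 10 tested genes of the band with a mean under 5 CPM, 3 rose, and of the 34 at or above it, 27 rose, and the weaker genes rest on fewer reads.

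The other genes not called had small differences in both directions. ZNF8, a repressor of BMP signalling through SMAD1, averaged 25.5 ± 1.59 CPM in KO and 24.3 ± 1.99 CPM in WT libraries (SD, n = 3 each; log2 KO/WT 0.07, SE 0.08). ZNF606 averaged 5.48 ± 0.378 CPM in KO and 5.90 ± 0.515 CPM in WT libraries (log2 KO/WT -0.11, SE 0.10). ZNF787, which lacks a KRAB box, measured 24.3, 20.5 and 20.3 CPM in the KO and 14.9, 18.2 and 22.9 CPM in the WT, and its groups overlapped (log2 KO/WT 0.22, SE 0.13, edgeR adjusted p = 0.243). ZNF544 had the most negative value, with a log2 KO/WT of -0.35 (SE 0.28) at 0.473 ± 0.0872 CPM in KO and 0.602 ± 0.157 CPM in WT libraries (SD, n = 3 each). ZNF497 and ZNF837 had log2 KO/WT values of 0.05 and 0.18 at 0.913 to 1.49 CPM. A p that misses the threshold does not show that the level was the same.

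Features the list was not built on were set beside the fold changes. Translated GENCODE transcripts gave 3 to 23 matches to a C2H2 finger pattern in the longest protein of each gene, with a median of 12. All finger numbers given here are such counts, in which overlapping matches count separately. A match to a KRAB A box pattern was found in 37 of the 48 genes. The pattern is short and can miss a KRAB box that differs from it. A gene without a match may therefore still encode a KRAB protein. Of the 35 tested genes with the match, 26 rose, with a median log2 KO/WT of 0.42, and of the 9 without it, 4 rose, with a median of 0.22. Across the 44 tested genes, finger number had Pearson's r = 0.12 and Spearman's rho = 0.16 with the log2 KO/WT. Of the 12 tested genes whose window holds the first shared word, 10 rose (median 0.43), and of the 28 without it, 18 rose (median 0.33). Of the 9 with the second word, 7 rose (median 0.47), and of the 31 without it, 21 rose (median 0.33). The words were chosen after the sequences had been read.

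The number of CpG dinucleotides in the promoter window went with smaller fold changes, with r = -0.42 and rho = -0.48 over 40 tested genes. These points are genes of the same 6 libraries and neighbours of each other, not independent replicates, and the genes at the far end combined CpG-rich windows with small differences. Position and CpG number cannot be told apart by this description.

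**Figure D4:**
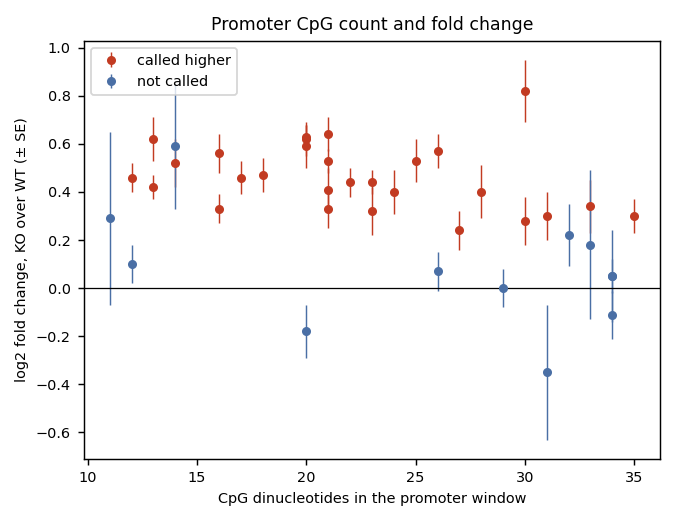
The log2 fold change of KO over WT (± SE from edgeR) against the number of CpG dinucleotides in the 300-base promoter window, for the 40 tested zinc finger genes with a RefSeq window. Genes called higher fill the range from 12 to 35 CpG, and genes not called are mostly at 26 CpG or more.

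The RNA of genes that act with KRAB zinc finger proteins in silencing did not shift in 1 direction. Of 39 listed genes 38 were tested, of which 6 rose, 3 fell and 29 were not called, with a median log2 KO/WT of 0.03 (0.00 over all genes tested). The shares called were 15.8% higher and 7.89% lower, against 14.0% and 17.7% of all genes. TRIM28, the corepressor that KRAB boxes bind, lies just beyond the last zinc finger gene at 58544091 to 58550722. It measured 726, 625 and 637 CPM in the KO and 488, 572 and 628 CPM in the WT. The groups overlapped at 625 and 628 CPM, and the log2 KO/WT of 0.24 (SE 0.08, edgeR adjusted p = 0.0531) was called in 6 of 13 alternatives, with an adjusted p of 1.52e-05 to 0.136. Among these were the fits without WT replicate 1 (0.15, adjusted p = 0.0457 in edgeR) and without WT replicate 3 (0.33, adjusted p = 0.00587 in edgeR). SETDB1, the methyltransferase that TRIM28 recruits, measured 74.7, 77.5 and 76.8 CPM in the KO and 71.8, 71.8 and 69.9 CPM in the WT. The groups did not overlap, but the call was missed, with a log2 KO/WT of 0.10 (SE 0.04, edgeR adjusted p = 0.101).

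ZNF445, a KRAB protein on chromosome 3 that guards imprinted methylation together with ZFP57, rose to 111 ± 2.20 CPM in KO against 83.9 ± 1.92 CPM in WT libraries (SD, n = 3 each; log2 KO/WT 0.41, SE 0.04, edgeR adjusted p = 3.43e-05). CHD3, a remodelling ATPase of the NuRD complex that TRIM28 binds, rose by 0.20, the heterochromatin protein gene CBX1 by 0.16 and the remodeller HELLS by 0.19 on the log2 scale, while MORC2, an ATPase that works with the HUSH complex, and EHMT2, the H3K9 methyltransferase G9a, rose by 0.24 and 0.36. Among the 3 that fell, FAM208A, a HUSH subunit also called TASOR, and SUV39H2, which trimethylates H3K9, had log2 KO/WT values of -0.69 and -0.59. CBX5, the heterochromatin protein HP1 alpha, fell by 0.13 (SE 0.04, edgeR adjusted p = 0.0418), a call lost in 10 of 13 alternatives and on leaving out any 1 of the 6 libraries (adjusted p 0.0511 to 0.253).

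**Figure D5:**
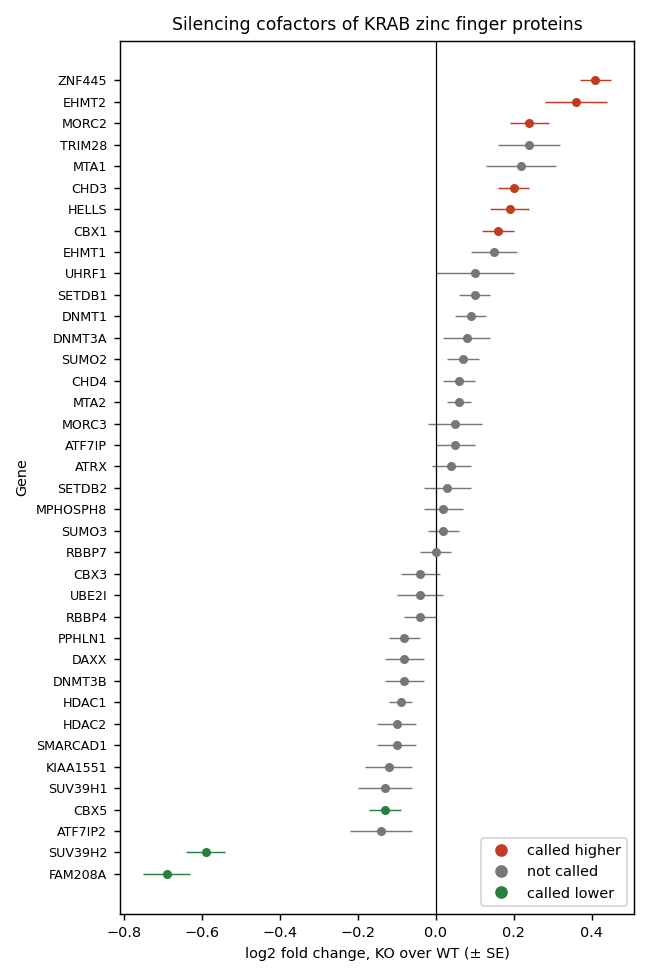
The log2 fold change of KO over WT (± SE from edgeR) for the 38 tested cofactors of KRAB-mediated silencing, ordered by value, with genes called higher, not called and called lower in separate colours. Values run from -0.69 for FAM208A to 0.41 for ZNF445, itself a KRAB gene, with most genes close to 0.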

How the data were processed

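Libraries from 3 KO and 3 WT samples of HEK293T RNA were poly(A)-selected, made with a stranded kit and read from both ends, per the labels' protocols. The authors deposited counts of reads for each symbol, not normalized. Trim Galore, STAR 2.4, Picard, HTSeq 0.9.1, DESeq2 and hg38 are named without role or order, per the submitters' processing notes; the annotation and the strand setting are not stated there.

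Of 56832 symbols, 18061 passed filterByExpr; the test was edgeR 4.0.16 in R 4.3.3 (TMM, quasi-likelihood F test of KO over WT, no covariate, two-sided, Benjamini-Hochberg over all genes tested, threshold 0.05). CPM use TMM-scaled totals. Each SE in the text and figures is the absolute log2 fold change divided by the square root of the edgeR F statistic. DESeq2 1.42.0 and limma-voom (limma 3.58.1) were alternatives. A floor of 3 counts covers counting error only. The procedure was run on simulated counts with the same spread for all genes (biological coefficient of variation 6.12%). That run does not show how many calls in these libraries are false. No pair of replicates was a duplicate (chi-square divided by degrees of freedom, 3.30 to 13.6).

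Positions, exon lengths and overlaps come from GENCODE 29 (GRCh38), which placed 77.8% of the tested genes by symbol. Genes were named by a rule: the 12 largest called changes in each direction, ZNF274, near-identical copies, the 3 highest levels per length over all libraries, TRIM28, and up to 4 called cofactors and neighbours per direction; genes named beyond it (ZNF154, ZNF550, ZNF552, ZNF773, ZNF787 and others) were chosen after their values were seen. The genes, lists and tests were chosen with earlier results of these data known. A further cofactor is not reported here and is left out of the counts of that list.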

Additional observations from a re-analysis of the deposited data

How the results depend on the processing

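Across 13 alternatives (DESeq2, limma-voom, a replicate block, RLE factors, scaling by library size, a filter of 1 CPM in 3 libraries or none, and each library left out), the zinc finger genes of the band called higher numbered 25 to 30 and those called lower 0. Leaving out 1 library gave 26 to 28. The median log2 fold change ran from 0.327 to 0.443, and was 0.326 over the 19 tested genes without exon overlap, an alternative chosen after seeing the data. Of the 30 rises, 24 kept their call under all alternatives; ZNF583, ZNF71, ZNF543, ZNF773, ZNF329 and ZNF446 did not, with adjusted p of up to 0.155, 0.118, 0.105, 0.163, 0.0821 and 0.157. Each of the 6 libraries, left out, ended at least 1 of these calls. No direction was reversed. Neighbours called higher were 4 to 8 with 1 library left out (7 with all), the 4 being without KO replicate 1 and the 8 without WT replicate 1; neighbours called lower were 0 to 1 with 1 library left out and 1 with no filter on low counts. The cause was not tested. With the replicate block, 25 genes of the band and 4 neighbours rose. DESeq2 called 26 genes of the band higher, without ZNF583, ZNF773, ZNF329 and ZNF446. Replicate numbers did not pair the libraries, since same-numbered KO and WT libraries deviated together at r = -0.226 to -0.0144, and 0 of 3 KO libraries correlated best with its own number. Fold changes of genes under about 1 CPM rest on few reads and are limited by depth.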
